A study of Mus musculus with 42 samples.

Results

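Kupffer cell and myeloid genes were followed in whole-liver RNA through 37 genes chosen by name, out of 19732 gene names over 6 deposited tables. Of these, 5 were resident Kupffer genes (Clec4f, Vsig4, Timd4, Cd5l and Marco) and 32 were general myeloid genes, meaning genes that Kupffer cells share with monocytes or other myeloid cells. Members were chosen by name and not by a threshold on measured values, though with earlier results of these data known. There were 35 members in all 6 tables, Ms4a7 and Lst1 were in 4 of them, and Spi1 appeared under its older symbol Sfpi1. Every listed member passed the filter of a mean normalized count of at least 5.

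The mice were male C57BL/6J animals, either ChemR23 knockouts (KO) made by CRISPR/Cas9 editing, which removes the receptor from every cell type, or their wild type (WT) littermates. From 6 weeks of age they ate for 15 weeks a lean control diet (10% of kcal from fat) or a high fat diet (60%), both with lard. Each of the 6 groups held 7 mice: WT lean, KO lean, WT obese and KO obese received the vehicle, ethanol in PBS, and WT obese+RvE1 and KO obese+RvE1 received 300 ng RvE1, all by intraperitoneal injection on 4 days with harvest on day 5 after at least 4 h of fasting. RvE1 is a lipid mediator made from eicosapentaenoic acid, and ChemR23, encoded by Cmklr1, is a receptor that binds it and the adipokine chemerin.

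Kupffer cells line the liver sinusoids, where they take up bacteria, aged erythrocytes and debris from portal blood. Clec4f, a galactose-binding lectin, is made in the mouse almost only by Kupffer cells, while Vsig4 (a complement receptor), Timd4 (a phosphatidylserine receptor), Cd5l (a secreted scavenger protein) and Marco (a scavenger receptor) mark macrophages long resident in tissue. Monocytes that enter the liver share with them the Csf1 receptor, the transcription factor Spi1 (PU.1), Fc receptors and lysosomal proteases, and mostly lack the resident markers at first. In whole tissue, fewer cells of a type and less RNA per cell cannot be told apart.

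Reads on named genes ran from 15960120 to 43755273 per library (median 24253532). Cmklr1, the deleted gene, lay between 9.72 and 22.6 normalized counts in KO lean and between 40.8 and 114 in WT lean livers, and the KO and WT ranges did not overlap among obese mice either (5.08 to 23.2 against 33.3 to 102). The liver identity of the samples was plain from 8 hepatocyte genes, whose summed normalized counts were at least 1134609.6 in each lean library, against 2319.7 to 12830.3 for the 5 resident Kupffer genes. Each table was normalized on its own, so levels were compared only within a table. Values are normalized counts, folds are on the scale of log2(normalized count + 1), and a gene was called at a Benjamini-Hochberg adjusted p under 0.1 in limma over all genes of the table.

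Per kilobase of exon, C1qa was the highest member in WT lean livers (mean 943 normalized counts per kb), followed by Lyz2 (759.6), Cd5l (743), C1qb (707) and Clec4f (611). Aif1 (12.0), Clec12a (11.0) and Ptprc (9.61) were the lowest of the 35. Exon length here means all annotated exons of a gene merged, which came to 18313 bases for Ptprc and 5528 for Clec12a. The order therefore depends on the annotation as well as on the counts. The means of Lyz2 and Cd5l were closer to each other than the spread of either between mice. The 3 C1q chain genes stand side by side on the minus strand of chromosome 4 (C1qb chr4:136880129-136886187, C1qc chr4:136889804-136893065, C1qa chr4:136895917-136898803, GRCm38), and Ms4a6c, Ms4a6d and Ms4a7 share a stretch of chromosome 19 (chr19:11469366-11482192, chr19:11586604-11604849 and chr19:11321039-11336146). Ms4a6c and Ms4a6d are close paralogs, so their reads could have been split between them.

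PU.1 sites with the core GAGGAA are a known feature of myeloid promoters, and this core was searched on both strands (GAGGAA, or TTCCTC where it lies on the other strand) in the 100 bases before each RefSeq start (GRCm38.p6). Of the 37 members, 29 matched the promoter table, and C1qa, Slc40a1, Csf1r, Spi1, Ms4a6d, Tyrobp, Cd14 and Lst1 did not. At least 1 match stood before 11 of the 29, or 37.9%, against 11.2% of the 27025 genes in the table. Shown here, as examples with and without the core, are the windows of C1qb and of the resident genes except Clec4f, with the core in capitals. The window of Clec4f held no match, and it is not printed because it overlaps a transcript of the gene in GENCODE. The printed windows lie at chrX:96293439-96293538, minus strand for Vsig4, chr3:87357781-87357880, plus strand for Cd5l, chr4:136886201-136886300, minus strand for C1qb, chr11:46810699-46810798, plus strand for Timd4 and chr1:120505025-120505124, minus strand for Marco.
Vsig4: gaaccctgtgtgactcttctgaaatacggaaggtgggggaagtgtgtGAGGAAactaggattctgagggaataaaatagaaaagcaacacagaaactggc
Cd5l: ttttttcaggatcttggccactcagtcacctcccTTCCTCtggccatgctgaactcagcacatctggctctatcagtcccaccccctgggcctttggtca
C1qb: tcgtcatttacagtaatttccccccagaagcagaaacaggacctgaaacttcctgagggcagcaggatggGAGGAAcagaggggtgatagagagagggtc
Timd4: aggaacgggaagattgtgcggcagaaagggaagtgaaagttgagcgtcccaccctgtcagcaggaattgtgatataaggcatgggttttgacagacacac
Marco: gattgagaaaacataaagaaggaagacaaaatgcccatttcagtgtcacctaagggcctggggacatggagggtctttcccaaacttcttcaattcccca
The core began 53 bases before the start of Vsig4, 66 before Cd5l and 30 before C1qb, while the letters did not occur in these windows of Timd4 and Marco. In a wider window, from 250 bases before to 50 bases after the start, 18 of the 29 members held a match, against 31.3% of genes. Marco was among these members, with a match 146 bases before its start. Such a match is a description of the letters and not a measured site.

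The comparison of KO lean with WT lean livers addressed what loss of ChemR23 changed without obesity. Kupffer cell and myeloid genes were higher in KO lean livers: 22 of 35 members were called higher and 0 lower, against 8% of all 13031 genes called higher and 8.3% called lower. When mice whose names open with the same number formed a random block, 21 of these 22 calls were lost and Ms4a6c kept its call. The calls that follow treat all mice as independent. All 5 resident Kupffer genes were called, their median log2 fold change being 0.98, and 17 of the 30 general members tested were called, with a median of 0.59. The median over all genes was near 0. Called members rose by 1.40-fold to 2.75-fold. In 9 members every KO lean mouse lay above every WT lean mouse (Ms4a6c, C1qa, Clec12a, Ms4a6d, Coro1a, Cd5l, C1qb, Ly86 and Aif1), a separation seen in 0.322% of all genes.

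Among the resident genes, Cd5l had the clearest difference. Its lowest, median and highest values were 974, 1437 and 2628 in WT lean and 2656, 3081 and 6298 in KO lean livers. The fold was 2.50 (log2 fold change 1.32 ± 0.23 SE, adjusted p = 0.0247), and the ranges did not overlap, although the highest WT lean mouse came close to the lowest KO lean mouse. For Clec4f the corresponding values were 962, 1437 and 2249 in WT lean and 1905, 2563 and 5639.9 in KO lean, a 1.97-fold difference (log2 fold change 0.98 ± 0.23 SE, adjusted p = 0.0357). Of the 7 KO lean mice, 5 exceeded every WT lean mouse, and 1 KO lean mouse stood well above the rest. Vsig4 went from 222, 332 and 522 to 474, 641 and 739 (log2 fold change 0.84 ± 0.18 SE, adjusted p = 0.0308), and again 5 KO lean mice exceeded all WT lean mice. Timd4, the phosphatidylserine receptor, had 66.8, 85.6 and 129 in WT lean and 119, 162 and 207 in KO lean livers (log2 fold change 0.77 ± 0.16 SE, adjusted p = 0.0308), with overlap of the 2 lowest KO lean mice only. Marco had the largest fold of the 35 members. It measured 18.2, 38.5 and 49.8 in WT lean and 32.9, 76.4 and 349 in KO lean livers (log2 fold change 1.46 ± 0.43 SE, adjusted p = 0.056), where 6 of 7 KO lean mice lay above the WT lean range. Leaving out 1 mouse at a time, Marco lost its call without WT lean replicate 5 (adjusted p = 0.118) and without KO lean replicate 2 (adjusted p = 0.106).

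**Figure D1:**
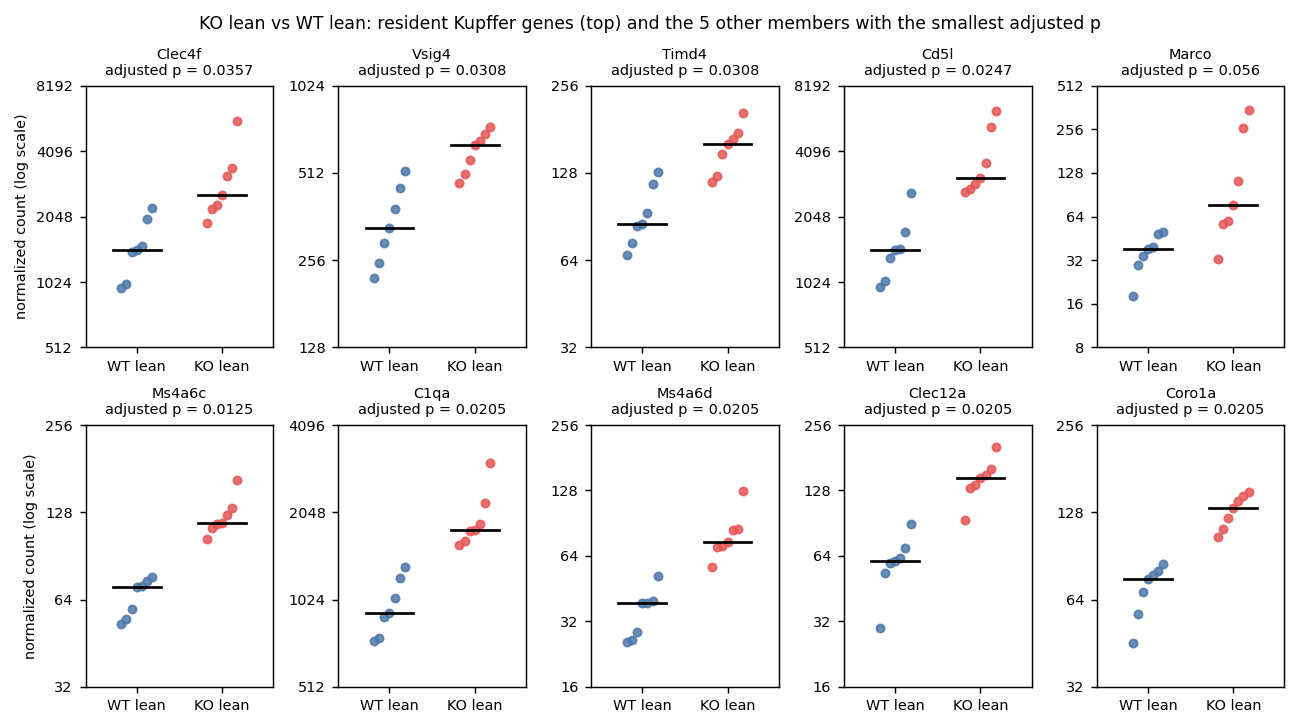
Normalized counts (log axis) of the 5 resident Kupffer genes (top row) and of 5 general members (bottom row) in WT lean (blue) and KO lean (red) livers, 1 point per mouse sorted by value within a group, with the median as a bar. All KO lean mice exceeded all WT lean mice for Cd5l and for the 5 genes of the bottom row, while Marco overlapped and spread from 32.9 to 349 in KO lean livers.

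The smallest adjusted p of all members belonged to Ms4a6c, which encodes a membrane-spanning protein of macrophages. It measured 52.5, 70.9 and 76.3 in WT lean and 104, 117 and 165 in KO lean livers, a narrow spread on both sides with no overlap (log2 fold change 0.92 ± 0.13 SE, adjusted p = 0.0125). Its paralog Ms4a6d had 25.7, 38.9 and 51.9 against 57.0, 74.3 and 127 (log2 fold change 1.17 ± 0.19 SE, adjusted p = 0.0205). C1qa, the A chain of the complement initiator C1q, measured 734, 917 and 1321 in WT lean and 1574, 1781 and 3029 in KO lean livers (log2 fold change 1.01 ± 0.16 SE, adjusted p = 0.0205), so that its level was 2.01-fold higher without overlap. Clec12a, an inhibitory lectin receptor of monocytes and granulocytes, had 29.8, 60.4 and 89.9 against 93.2, 147 and 203 (log2 fold change 1.28 ± 0.21 SE, adjusted p = 0.0205). The actin regulator Coro1a, expressed across blood leukocytes, measured 45.4, 75.3 and 84.8 in WT lean and 105, 133 and 151 in KO lean livers (log2 fold change 0.90 ± 0.15 SE, adjusted p = 0.0205). In Ms4a6d, C1qa, Clec12a and Coro1a too the lowest KO lean mouse stood above the highest WT lean mouse.

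By role, all 3 C1q chains were called, with log2 fold changes of 1.17 for C1qb and 0.59 for C1qc. Of the 4 scavenger and iron genes the mannose receptor Mrc1 was called (log2 fold change 0.59, adjusted p = 0.0357), whereas Folr2 (0.37, adjusted p = 0.27), the haemoglobin scavenger receptor Cd163 (0.07, adjusted p = 0.843) and the iron exporter Slc40a1 (0.38, adjusted p = 0.118) did not pass. Among 7 identity genes, 5 were called, including the growth factor receptor Csf1r at 1.52-fold and the secreted protein Wfdc17 at 2.74-fold (log2 fold change 1.46 ± 0.25 SE, adjusted p = 0.0243), and Cd68 and Spi1 were not (adjusted p = 0.338 and 0.157). The adaptor Tyrobp was the 1 of 5 genes called in the group of Fc receptors, adaptors and Cd14 (log2 fold change 1.01, adjusted p = 0.0304); Fcer1g, Fcgr1, Fcgr3 and the endotoxin co-receptor Cd14 had log2 fold changes of 0.14 to 0.50. Of 5 haematopoietic signalling genes, Coro1a, Aif1 and Cd53 were called and the pan-leukocyte phosphatase Ptprc and Laptm5 were not. Of 6 effector genes, Ly86, Lyz2 (lysozyme), the protease Lgmn and the pore-forming Mpeg1 were called, while the oxidase subunit Cybb (0.31) and the protease Ctss (0.25) did not pass.

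Other genes of these cells, taken from lists beyond the members, showed a like direction in part. Of 18 other Kupffer cell genes, 6 were called higher and 0 lower, among them Cd38 (log2 fold change 0.67, adjusted p = 0.0302), the transcription factor Spic (1.21, adjusted p = 0.0308), Clec1b (0.61, adjusted p = 0.0347) and Emr1, the F4/80 antigen (0.88, adjusted p = 0.0357). Of 27 myeloid receptor and signalling genes, 11 were called higher and 0 lower, led by the lectins Clec4n (1.38, adjusted p = 0.0302) and Clec7a (1.14, adjusted p = 0.0347) and the complement receptor C3ar1 (0.93, adjusted p = 0.0308). The monocyte chemokine receptor Ccr2 was called higher (0.78, adjusted p = 0.0697). Neither of the 2 Csf1r ligand genes was called, with log2 fold changes from -0.08 to 0.08.

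Several other values moved with this comparison, and their part in the difference was not tested. B and plasma cell genes were higher in 2 of 5 (Ms4a1 1.09, adjusted p = 0.0683; Cd79b 0.88, adjusted p = 0.0826), with sums of 52.2 to 136 in WT lean and 88.7 to 196 in KO lean livers. Of 8 sinusoidal endothelial and 8 hepatocyte genes, 0 were called. Over all genes the median log2 fold change went from 0.17 for genes with under 1500 bases of exon to -0.14 at 6000 bases or more, and the members went from 0.91 to 0.38 over the same classes. Once trends with length and GC content were removed from every library, 23 members were called, against 7.02% of all genes called higher.

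The mice of a group shared the number that opens their identifiers in sets, 3 numbers among KO lean and 4 among WT lean mice, and what the number stands for was not given in the sources used here. With this number as a random block, Ms4a6c had an adjusted p of 0.0801 and 0.0153% of all genes were called higher, the other called members had adjusted p of 0.111 to 0.160, and the genes called higher over the whole table went from 1042 to 2. Without both WT lean mice of number 26 the count was 3 (0.0384% of all genes called higher), and without both KO lean mice of number 9 it was 7 (0.0998%), with the resident median at 0.76 and 1.02.

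The comparison of KO obese with KO lean livers asked what the high fat diet changed in mice without ChemR23, and it shares its 7 KO lean mice with the comparison above. Kupffer cell and myeloid genes were lower in KO obese livers: 19 of 37 members were called lower and 0 higher, against 12.1% of all 14213 genes called lower and 12% called higher. Of the resident genes 4 of 5 were called, the median over the 5 being -0.92 in log2, and of the general members 15 of 32, with a median of -0.41. In 9 members every KO obese mouse lay below every KO lean mouse (Wfdc17, Vsig4, C1qa, Cd5l, Timd4, Tyrobp, Clec4f, C1qb and C1qc), as in 1.11% of all genes.

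Clec4f, the Kupffer cell lectin, had 2091, 2823 and 6219.9 as lowest, median and highest value in KO lean and 1242, 1712 and 1940.0 in KO obese livers. It was 1.96-fold lower (log2 fold change -0.97 ± 0.20 SE, adjusted p = 0.00686). Vsig4 measured 522, 706 and 813 in KO lean against 305, 423 and 459.6 in KO obese livers (log2 fold change -0.73 ± 0.12 SE, adjusted p = 0.00348). Timd4 measured 131, 178 and 227 against 59.8, 96.7 and 128 (log2 fold change -0.90 ± 0.17 SE, adjusted p = 0.00536), and its highest KO obese mouse nearly reached the lowest KO lean mouse. Cd5l was 2.00-fold lower, with 2916, 3390.4 and 6946 in KO lean and 1577, 2028 and 2319 in KO obese livers (log2 fold change -1.002 ± 0.18 SE, adjusted p = 0.00478). None of these 4 ranges overlapped. Marco again spread widely, from 36.2 to 383 in KO lean and from 30.0 to 136 in KO obese livers, and did not pass (log2 fold change -0.92 ± 0.46 SE, adjusted p = 0.175).

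**Figure D2:**
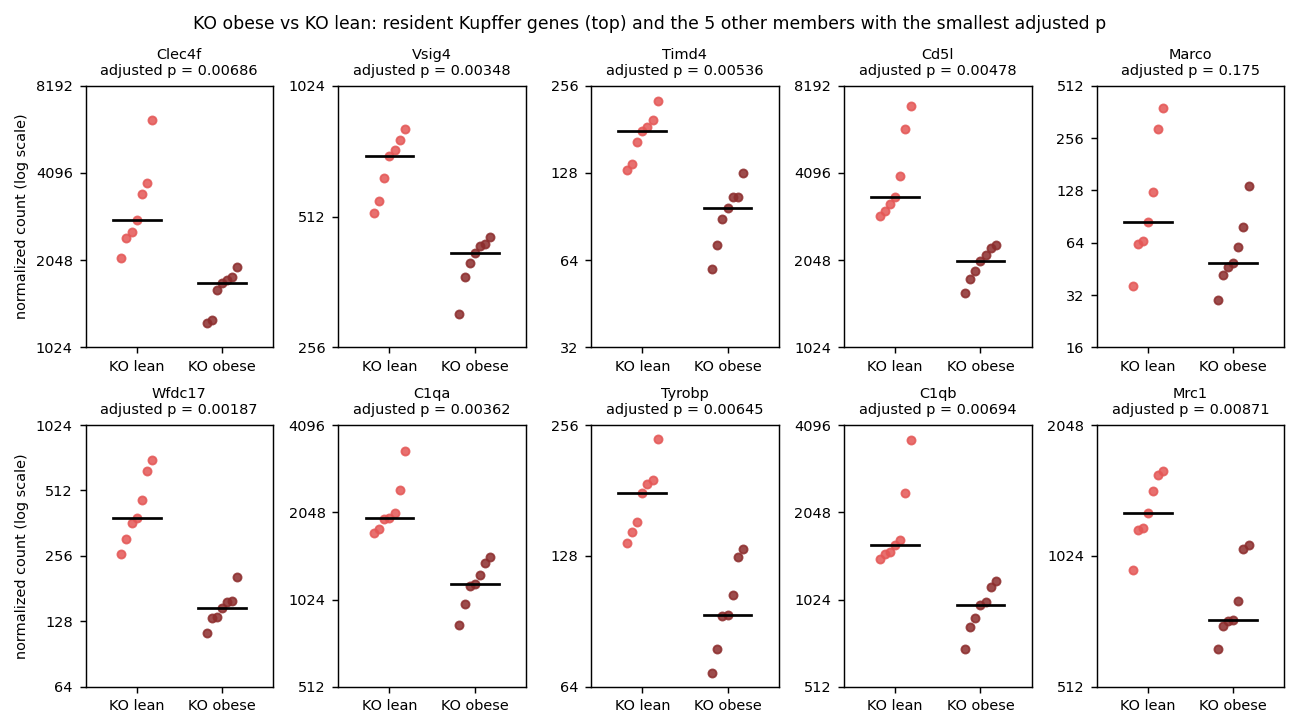
Normalized counts (log axis) of the 5 resident Kupffer genes (top row) and of 5 general members (bottom row) in KO lean (red) and KO obese (dark red) livers, 1 point per mouse sorted by value, with the median as a bar. The KO obese mice lie below all KO lean mice for Clec4f, Vsig4, Timd4, Cd5l, Wfdc17, C1qa, Tyrobp and C1qb and overlap them for Marco and Mrc1.

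Wfdc17 had both the smallest adjusted p and the largest fold of the 37 members. Its values were 261, 382 and 705 in KO lean and 113, 148 and 205 in KO obese livers, 2.83-fold lower (log2 fold change -1.50 ± 0.20 SE, adjusted p = 0.00187). C1qa went from 1731, 1963 and 3340.3 to 838, 1159.7 and 1434 (log2 fold change -0.89 ± 0.15 SE, adjusted p = 0.00362), and C1qb was 1.94-fold lower (1408, 1577 and 3644 against 694, 984 and 1186, log2 fold change -0.96 ± 0.19 SE, adjusted p = 0.00694). The adaptor Tyrobp, through which several myeloid receptors signal, measured 137, 178 and 238 in KO lean and 68.9, 93.5 and 133 in KO obese livers (log2 fold change -0.82 ± 0.16 SE, adjusted p = 0.00645). All 4 separated the groups completely.

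Among the remaining roles, Mrc1 (log2 fold change -0.69, adjusted p = 0.00871) and the folate receptor Folr2 (log2 fold change -0.73, adjusted p = 0.0185) were lower and Cd163 and Slc40a1 had log2 fold changes of 0.17 and -0.01. Of 8 identity genes 4 were called: Wfdc17, Clec12a, Csf1r and Ms4a6d. Ms4a6c was not (log2 fold change -0.28, adjusted p = 0.293), nor were Cd68, Ms4a7 or Spi1. Tyrobp was the 1 called gene of 5 in its group, and Fcer1g, Fcgr1, Fcgr3 and Cd14 lay between -0.27 and 0.08. Coro1a (1.81-fold) and Aif1 (1.88-fold) were called lower among 6 haematopoietic genes, and Ly86, Lyz2 and Lgmn among 6 effector genes. Lst1 was listed at 0 in 1 KO obese library and did not pass.

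Beyond the members, 7 of 18 other Kupffer cell genes were called lower and 0 higher, among them the ficolin Fcna (log2 fold change -0.69, adjusted p = 0.0104), Emr1 (-0.75, adjusted p = 0.0167), Cd38 (-0.58, adjusted p = 0.0194) and Clec1b (-0.51, adjusted p = 0.0261). Of 27 myeloid receptor genes 5 were lower, led by Clec4n (-0.83, adjusted p = 0.0175), and 1 was higher, the complement receptor C5ar1 (0.77, adjusted p = 0.0888). The monocyte and macrophage gene F13a1 was higher (1.64, adjusted p = 0.0574), and none of 5 neutrophil genes was called, with summed counts of 123 to 338 in KO lean and 84.8 to 1180.2 in KO obese livers.

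The decrease was not confined to myeloid lists. All 5 B and plasma cell genes were lower, among them Ms4a1 (-1.68, adjusted p = 0.0134) and Igj (-1.09, adjusted p = 0.0213), and their summed counts were 97.6 to 216 in KO lean and 27.7 to 82.6 in KO obese livers. The endothelial genes Gpr182, Clec4g and Kdr were lower among 8 tested, and 2 of 6 T and NK cell genes were lower. All-gene medians went from -0.17 in genes under 1500 bases of exon to 0.15 at 6000 bases or more, and the members went from -0.73 to -0.11. The part of these values in the result was not tested. When mice of a shared number were treated as a random block, 17 of 37 members were called, against 3.92% of all genes called lower in that fit, and without the 3 KO obese mice of number 31 the count was 9, against 3.34%.

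**Figure D3:**
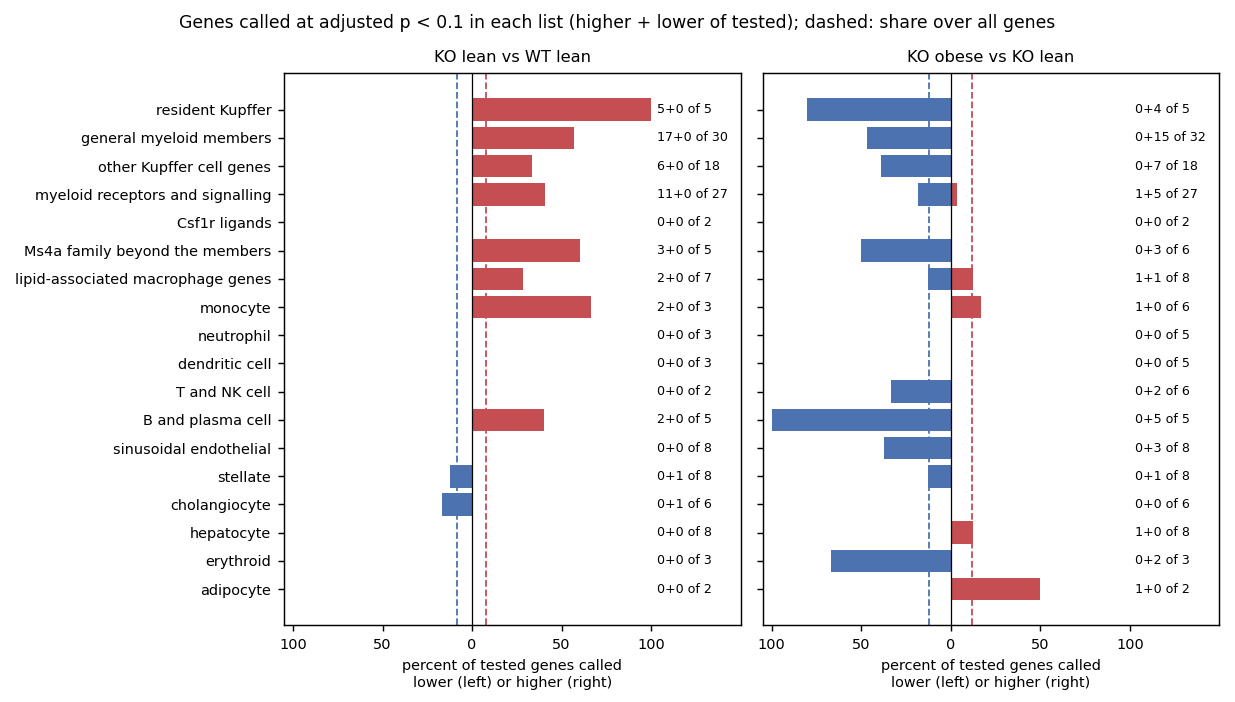
Share of tested genes called higher (right, red) or lower (left, blue) at an adjusted p under 0.1 in each list, for KO lean vs WT lean and KO obese vs KO lean, with the counts beside each bar and the share over all genes dashed. Resident Kupffer genes had 5 of 5 called higher and 4 of 5 called lower, and B and plasma cell genes 2 of 5 and 5 of 5.

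Resident and general genes were also set against each other within each mouse, as the mean log2 level of the 5 resident genes minus that of the general members. This difference was 0.38 to 0.84 in WT lean and 0.89 to 1.44 in KO lean livers, so the KO lean mice all lay above the WT lean mice. In the other table KO lean mice had 1.21 to 1.77 and KO obese mice 0.25 to 1.43, which overlapped. The general mean there also held Ms4a7 and Lst1, both at low counts, so the differences are not comparable between the tables. The resident mean alone did not overlap in either table (7.68 to 8.71 in WT lean and 8.97 to 9.79 in KO lean; 8.33 to 8.72 in KO obese and 9.11 to 9.93 in KO lean). The general mean did not overlap between WT lean (7.24 to 7.98) and KO lean (8.05 and above) either, and overlapped between KO lean (7.86 to 8.32) and KO obese (7.29 to 8.08). The lowest difference among KO obese mice belonged to replicate 1, which had the highest value of its group in 19 of 37 members and the lowest in 5.

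**Figure D4:**
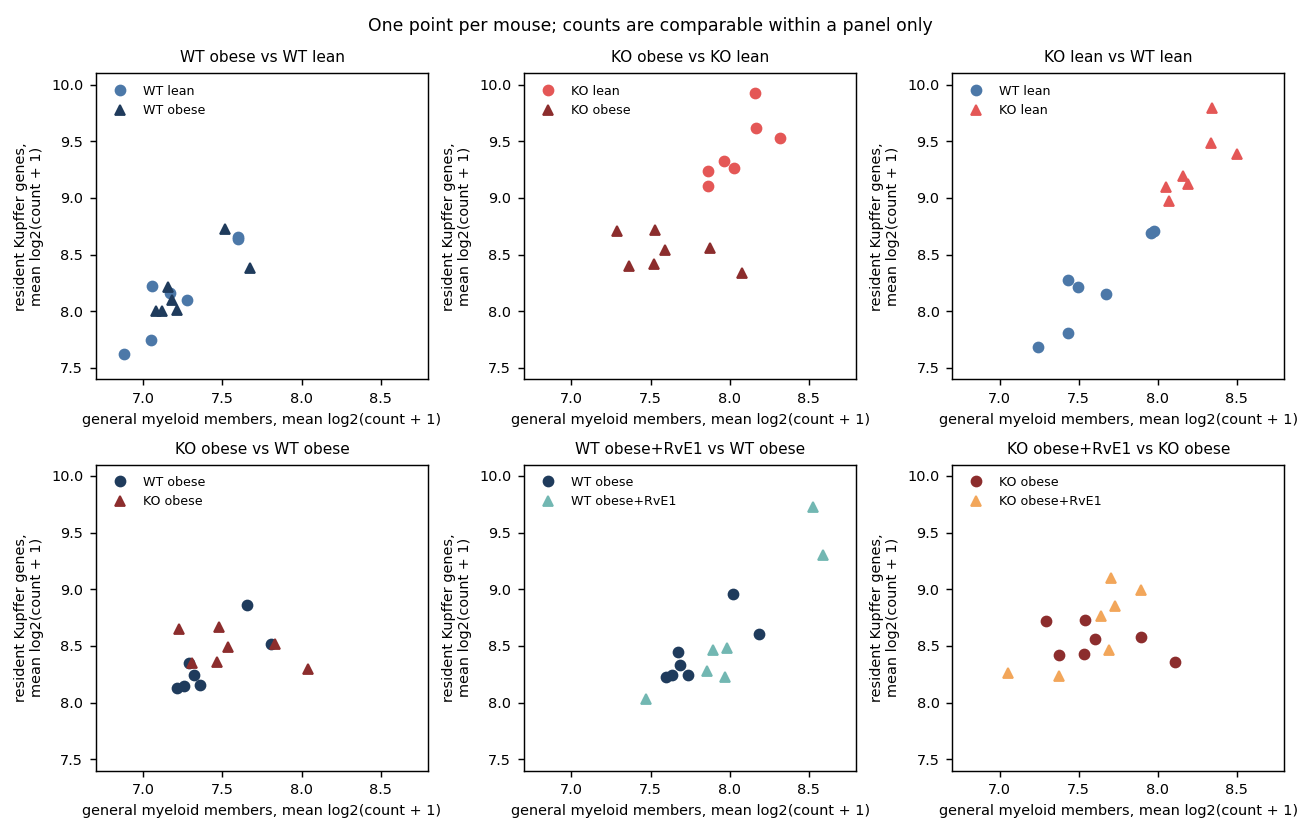
Mean log2(normalized count + 1) of the 5 resident Kupffer genes (vertical) against that of the general members (horizontal), 1 point per mouse, 1 panel per comparison. KO lean mice sit apart from WT lean mice (8.97 to 9.79 against 7.68 to 8.71 on the vertical axis) and from KO obese mice, while the groups overlap in the other 4 panels.

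In WT livers the high fat diet gave no call: limma, edgeR and DESeq2 each called 0 of 37 members, against 6.27% of all genes called by limma. At an unadjusted p under 0.05 there were 2 members, both higher, and all genes had 9.56% on that side. The resident median was 0.02 and the general median 0.03. Clec4f had 921, 1390.4 and 2162 in WT lean and 1056, 1350.0 and 1809 in WT obese livers, and Vsig4 had 212, 319 and 503 and 261, 348 and 437, ranges that largely coincide. The largest log2 fold change was that of Lst1 (log2 fold change 0.85 ± 0.30 SE, adjusted p = 0.132), at 2.61 to 9.57 counts in WT lean and 6.69 to 14.1 in WT obese livers. In the list of other Kupffer cell genes, which are not members, Pltp (-1.55, adjusted p = 0.0171) and Id3 (-0.94, adjusted p = 0.0881) were called lower. Over all genes 6.27% were called in either direction, and no resident Kupffer gene was called. Whether the lower Pltp and Id3 levels arose in Kupffer cells was not tested.

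Genotype made no called difference among obese mice. All 3 tools called 0 of 37 members in KO obese vs WT obese livers, where 0.0141% of all genes were called. Clec4f measured 1166, 1494 and 1992 in WT obese and 1209, 1660.4 and 1870.4 in KO obese livers, and its 95% interval for the log2 fold change was -0.26 to 0.32. For Vsig4 that interval was -0.24 to 0.30. At an unadjusted p under 0.05, 4 members were higher and 1 lower, against 1.09% and 1.17% of all genes. The largest log2 fold change was that of Lst1 (-1.07, adjusted p = 1), at 7.39 to 15.5 counts in WT obese livers.

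**Figure D5:**
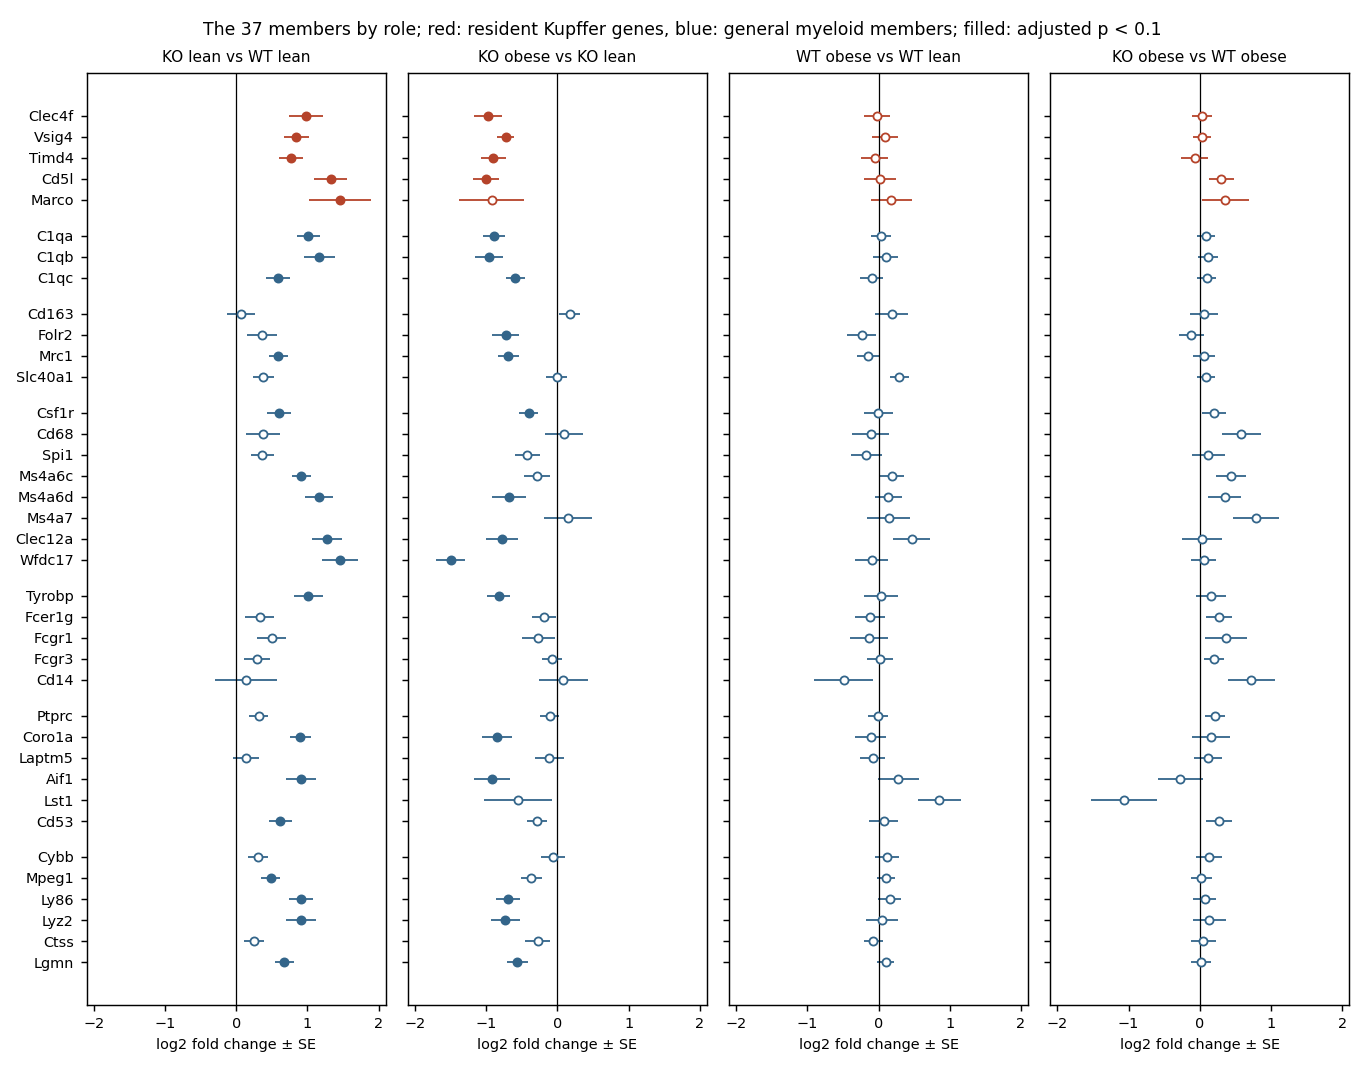
Log2 fold change ± SE of the 37 members by role in 4 comparisons (35 of them in KO lean vs WT lean), with resident Kupffer genes in red, general members in blue and filled symbols for an adjusted p under 0.1. Members sit right of 0 in KO lean vs WT lean (22 filled), mostly left of 0 in KO obese vs KO lean (19 filled) and around 0 with none filled in the comparisons of WT diet and of obese genotypes.

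Whether the diet effect differed between genotypes was tested directly over WT lean, WT obese, KO lean and KO obese. The difference was negative, meaning a lower response in KO, in 34 of 37 members with a median of -0.49, but 0 members passed in limma, where 0.00718% of all genes did. At an unadjusted p under 0.05 there were 19 members, all lower in KO, against 9.32% of all genes on that side. C1qa (difference -0.92, adjusted p = 0.139), Wfdc17 (-1.41, adjusted p = 0.139) and C1qb (-1.06, adjusted p = 0.141) came closest. With the identifier number as a block, limma called 0 members and 0% of all genes, and the adjusted p of these 3 genes was 0.603. DESeq2 called 10 members lower in KO, against 3.89% of all genes on that side, edgeR 0, and limma with library quality weights 16, against 9.19%. DESeq2 gave no adjusted p for Marco, Ms4a6d, Ms4a7, Fcer1g, Fcgr1, Aif1, Lst1 and Ly86. Genes without one were counted as not called, among the members and among all genes. Leaving out WT obese replicate 1 gave 12 calls on that side (3.35% of all genes) and leaving out KO lean replicate 5 gave 14 (6.61%), while leaving out any other mouse gave 0 to 2.

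RvE1 gave no call in either genotype. In WT obese livers limma, edgeR and DESeq2 called 0 of 35 members, as 0% of all genes were called by limma, although all 35 log2 fold changes were positive with a median of 0.25, and 4 members had an unadjusted p under 0.05 against 2.48% of all genes on that side. These were Fcer1g, Ms4a6c, Tyrobp and C1qa, the largest being Tyrobp (log2 fold change 0.49 ± 0.23 SE, adjusted p = 0.811), with 58.6, 86.7 and 137 in WT obese and 74.3, 123 and 195 in WT obese+RvE1 livers. Clec4f measured 1239, 1593 and 2122 in WT obese and 1196, 1889 and 3598 in WT obese+RvE1 livers. Within the RvE1-treated group, replicate 7 was highest in 20 of 35 members and replicate 3 lowest in 25, and without 1 mouse at a time the median of the resident genes ranged from 0.10 to 0.37.

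In KO obese livers 0 of 37 members were called after RvE1 by any of the 3 tools, as 0% of all genes were, and 20 log2 fold changes were positive with a median of 0.06. The largest was that of Cd14, the endotoxin co-receptor, with 90.4, 142 and 318 in KO obese and 40.6, 75.3 and 159 in KO obese+RvE1 livers (log2 fold change -0.91 ± 0.33 SE, adjusted p = 0.557). It was also the 1 member with an unadjusted p under 0.05, in the lower direction where 4.85% of all genes stood. Clec4f measured 1266, 1731 and 1958 in KO obese and 1084, 2167 and 2939.7 in KO obese+RvE1 livers. The RvE1 response did not pass a test of difference between genotypes for any of 35 members (0 called in limma, edgeR and DESeq2, and 0% of all genes in limma), with 3 at an unadjusted p under 0.05 against 0.904% of all genes on that side.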

How the data were processed

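Liver RNA of 42 mice was sequenced as stranded total RNA. According to the study's methods the authors aligned reads with Bowtie2 to mm10, counted them with featureCounts and normalized them with DESeq2; versions, annotation and strand setting were not given in the sources used here. The deposited values are a signal, read counts per gene divided by a DESeq2 size factor, made separately for each of 6 tables. The deposited columns of the authors' comparisons (mean, log2 fold changes, p-values and adjusted p-values) were not used. Whole reads were recovered for 100% of values within 0.1 reads, and edgeR and DESeq2 were run on those reads as alternatives. On the recovered reads edgeR called 22 members in KO lean vs WT lean and 20 in KO obese vs KO lean. Over all alternative settings, stricter thresholds included, the counts ran from 1 to 25 and from 14 to 22. The share of all genes called also differed between settings, so these counts alone do not set the members against all genes.

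Within each table, limma 3.58.1 in R 4.3.3 (lmFit, then eBayes with trend) compared groups by log2(normalized count + 1) for genes whose mean was at least 5, with Benjamini-Hochberg adjustment over all genes tested and a threshold of 0.1. Interactions were fitted on the 4 groups concerned. edgeR 4.0.16 and DESeq2 1.42.0 served as alternatives, beside other pseudocounts (0.5 and 4), no filter, TMM and equal read totals, library weights, the identifier number as a random block, a length and GC correction and leaving out each mouse. Replicates were separate mice, numbered in accession order. Members and lists were chosen with earlier results of these data known. Named were the 5 resident genes, the 4 other called members with the smallest adjusted p, the largest fold in each comparison, the 3 smallest adjusted p of an interaction, and up to 4 called genes of another list. On simulated data limma recovered 32.8% of 1.5-fold and 92.5% of 2-fold changes in KO lean vs WT lean (13031 genes), and 44.8% and 86.6% in KO obese vs KO lean (14104 genes). The simulation changed 67 genes at each of these folds and drew every mouse independently. It held no correlation between mice of a shared number and fewer changed genes than were called in the data, so the rates describe that setting only. Coordinates came from GENCODE M21 (GRCm38), which matched 98.6% of gene names. Without a stated strand setting, overlapping and antisense genes could not be told apart, and reads of the Ms4a6, Fcgr and Lyz paralogs could have been split. Results for some genes of the cell type lists are not reported here.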

Additional observations from a re-analysis of the deposited data

Results flagged for a closer look

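Within groups of 7 mice, 18 of 460 group values, or 3.91%, had 1 mouse set apart from the other 6 by a gap, as a share of the group's whole range, past Dixon's 95% critical value, and chance flags about 1 in 20 groups. These were 10 gene and mouse pairs in 9 mice, several seen in more than 1 table. Gaps and ranges were measured on log2(normalized count + 1), while the values given below are normalized counts. On the high side, Laptm5 in KO lean replicate 5 was at 601 normalized counts against a group median of 313 (gap 0.712 of the range), Cybb in WT obese replicate 7 at 416 against 247 (0.683), Lgmn in WT lean replicate 1 at 883 against 613 (0.679), and Spi1 in KO obese replicate 1 at 175 against 85.2 (0.594). On the low side, Spi1 in KO lean replicate 3 was at 103.4 against 122 (0.58), and Fcer1g was at 29.6 against 64.9 in WT lean replicate 6 (0.611) and at 57.3 against 87.1 in WT obese+RvE1 replicate 3 (0.611). KO obese+RvE1 replicate 5 was low for Folr2, at 77.1 against 105.7 (0.615), and for Fcgr3, at 66.3 against 122 (0.614). Lst1 in KO obese+RvE1 replicate 6 was listed at 0 against a median of 5.00 (0.601). None of the 5 resident Kupffer genes was among them.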

How the results depend on the processing

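In KO lean vs WT lean the 22 calls became 1 when mice of a shared identifier number formed a random block, and 7, 13 and 3 without the mice of number 9, 21 and 26. Leaving out 1 mouse at a time gave 19 to 24 calls. The share of all genes called moved as well, from 8% called higher as reported to 0.0153% with the block. The member counts of this section alone therefore do not show a change particular to the members. In KO obese vs KO lean the 19 calls became 9 without the mice of number 31, and ranged from 18 to 22 without 1 mouse at a time. In WT obese vs WT lean 1 member was called with library quality weights, and 0 to 1 without 1 mouse at a time (1 without WT lean replicate 2 or 7). For diet by genotype the 0 calls became 16 with library quality weights and 10 with DESeq2, and ranged from 0 to 14 without 1 mouse at a time (14 without KO lean replicate 5, 12 without WT obese replicate 1, 2 without KO lean replicate 1 and 1 without WT lean replicate 1). The cause was not tested. Scaling to equal read totals moved the median of all genes by -0.12 in KO lean vs WT lean and by 0.14 in KO obese vs KO lean (log2), with 20 and 14 calls. Over all genes this scaling gave 392 higher and 1753 lower (1042 and 1081 as reported) and 2555 higher and 628 lower (1704 and 1718). The medians of resident and general members in the 2 comparisons with calls kept their direction under every alternative run, and no named member reversed. Of the 22 and 19 called members, 19 and 18 stayed called without each mouse in turn, the exceptions being C1qc, Csf1r and Marco in the first comparison and Ms4a6d in the second. No paired analysis was possible because no compared groups share 2 or more identifier numbers. The 1 number in more than 1 group was 23, in KO obese (1 mouse) and KO obese+RvE1 (2 mice). Depth is not equal across libraries. Median reads on named genes were 25435851 in KO lean, 19755530 in WT lean and 23362060 in KO obese libraries. Ranges were 21622483 to 40612838, 17102939 to 28637966 and 15960120 to 43755273, in that order. The part of depth in the results was not tested.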

Other observations

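In the list of lipid-associated macrophage genes, calls went both ways in WT obese vs WT lean and in KO obese vs KO lean livers. Cd36, a fatty acid transporter also made by hepatocytes, was called higher and the tetraspanin Cd9 lower in both. The other genes of that list, Trem2 and Gpnmb among them, are not reported here. Over all genes 6.27% were called in WT obese vs WT lean, and 12% higher and 12.1% lower in KO obese vs KO lean. Cfd, the adipocyte protease adipsin, was called higher in both, with summed counts of the 2 adipocyte genes at 178 to 1309 in WT lean and 290.2 to 2104 in WT obese livers.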
